A study of Mus musculus with 15 samples.

Results

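Dense runs of neighbouring peaks are stretches of the genome in which open chromatin sites stood close together. The consensus peaks of mouse embryonic fibroblasts (MEFs) were sorted by chromosome and start, neighbours were chained where no more than 3000 bases separated the end of one peak from the start of the next, and every chain of 10 or more peaks was kept. This gave 783 dense runs holding 11910 of the 206367 consensus peaks, against 194457 peaks outside them. All peaks together formed 116523 chains, of which 74208 were single peaks. The rule used the positions of the consensus peaks and no differences between groups. Those positions come from peaks called on reads of these libraries, so the level of signal in a run and its choice are not independent.

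The data are from Omni-ATAC-seq, which uses a transposase to cut and tag accessible DNA, so that a read count over a peak measures how open that site was across the cells of a library. There were 15 libraries in 5 groups of 3. Early Fra2 and late Fra2 libraries came from MEFs that carried a CRISPRa-VPR construct with an mCherry reporter, a nuclease-dead Cas9 fused to transcriptional activators, and guides against Fosl2, the gene that encodes the AP-1 subunit Fra2. Early control and late control libraries came from MEFs with the same construct and scrambled guides. Cells of these groups were infected with lentivirus and sorted for mCherry and the fibroblast surface protein THY1. The sample labels give day 3 for early and day 10 for late, and day 4 for the early control library 3; the series design gives day 4 and day 11, so the groups are called early and late here. Ezh2 inhibitor libraries came from MEFs given 4 µM GSK343, which blocks the histone methyltransferase Ezh2, for 3 days and then washed out, and carry the label day 4. Whether these cells carried the construct or were sorted is not stated, so the scrambled-guide early controls, used here as their reference, may differ from them in more than the drug. The MEFs are labelled as of C57/B16 background, and separate cultures are not stated for the 3 libraries of a group. The spread behind each p-value may therefore be a technical one.

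Fra2 is a member of the Fos family. It has no strong activation domain of its own and pairs with Jun proteins to form AP-1, which binds the motif TGANTCA at enhancers and at some promoters, and AP-1 is one of the main factors that open fibroblast enhancers. Ezh2 is the catalytic subunit of Polycomb repressive complex 2 (PRC2), which marks developmental genes such as the Hox clusters for silencing. Closely spaced open sites are common around genes that a cell type transcribes strongly or that respond to serum and growth factors, because a promoter and several enhancers then lie side by side.

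The promoters of 6 genes in dense runs are shown because the runs of these genes carry the results below or because their promoters hold the AP-1 motif. Each line gives the 250 bases before the annotated transcription start, 5′ to 3′ on the gene's own strand, from RefSeq annotation of GRCm38.p6, with TGANTCA and the related motif TGACGTCA in capitals.
Fosl2 (chr5:32136222-32136471, plus strand): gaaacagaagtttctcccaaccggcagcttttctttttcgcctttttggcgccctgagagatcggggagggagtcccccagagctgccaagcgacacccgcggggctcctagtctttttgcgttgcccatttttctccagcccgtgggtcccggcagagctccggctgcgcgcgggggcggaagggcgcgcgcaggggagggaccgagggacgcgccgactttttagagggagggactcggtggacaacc
Csf1 (chr3:107760470-107760719, minus strand): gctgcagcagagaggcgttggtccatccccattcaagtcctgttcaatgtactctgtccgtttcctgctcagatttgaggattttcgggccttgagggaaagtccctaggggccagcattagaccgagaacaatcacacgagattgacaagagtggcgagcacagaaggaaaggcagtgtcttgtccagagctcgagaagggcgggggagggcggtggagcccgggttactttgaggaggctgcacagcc
Fos (chr12:85473640-85473889, plus strand): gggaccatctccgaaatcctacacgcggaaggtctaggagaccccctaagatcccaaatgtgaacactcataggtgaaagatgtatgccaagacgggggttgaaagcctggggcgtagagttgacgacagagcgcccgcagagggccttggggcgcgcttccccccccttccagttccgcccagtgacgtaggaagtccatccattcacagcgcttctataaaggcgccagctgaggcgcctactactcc
Btg2 (chr1:134079156-134079405, minus strand): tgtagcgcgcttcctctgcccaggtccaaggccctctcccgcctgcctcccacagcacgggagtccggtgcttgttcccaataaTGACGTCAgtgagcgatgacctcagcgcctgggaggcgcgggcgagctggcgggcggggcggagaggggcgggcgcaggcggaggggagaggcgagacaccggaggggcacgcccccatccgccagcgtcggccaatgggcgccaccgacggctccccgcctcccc
Csrnp1 (chr9:119983024-119983273, minus strand): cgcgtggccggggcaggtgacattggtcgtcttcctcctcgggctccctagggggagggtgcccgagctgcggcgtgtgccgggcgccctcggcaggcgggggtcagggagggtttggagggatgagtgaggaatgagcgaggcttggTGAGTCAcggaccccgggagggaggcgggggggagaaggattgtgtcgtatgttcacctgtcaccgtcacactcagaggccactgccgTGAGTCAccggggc
Zyx (chr6:42349578-42349827, plus strand): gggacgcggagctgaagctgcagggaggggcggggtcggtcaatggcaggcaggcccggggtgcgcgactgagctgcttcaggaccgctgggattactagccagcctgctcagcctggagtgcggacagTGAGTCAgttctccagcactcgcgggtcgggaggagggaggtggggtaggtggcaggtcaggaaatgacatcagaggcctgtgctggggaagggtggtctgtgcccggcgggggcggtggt

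Fosl2 is the gene the guides targeted. Csf1 encodes the macrophage colony-stimulating factor, Fos the founding member of the Fos family, Btg2 an antiproliferative p53 target, Csrnp1 an immediate early nuclear protein, and Zyx the focal adhesion protein zyxin. Motifs were searched on both strands in windows of 300 bases, from 250 bases before to 50 bases after each start, and TGACGTCA, the cyclic AMP response element, does not itself contain TGANTCA. By position from the start, the Csrnp1 promoter has TGANTCA at -102 and -14, that of Zyx at -121, and that of Btg2 has TGACGTCA at -166; the promoters of Fosl2, Csf1 and Fos hold neither within these 250 bases. TGANTCA occurred in 47 of 803 windows that lay over a dense-run peak (5.85%), in 677 of 12039 windows over other peaks (5.62%) and in 1486 of 21263 windows of all protein-coding genes (6.99%). TGACGTCA occurred in 25 of 803 windows over dense-run peaks (3.11%), in 375 of 12039 over other peaks (3.11%) and in 475 of 21263 of all (2.23%). The median GC content was 63.3% in the windows over dense-run peaks, 61.7% in those over other peaks and 56.3% in all. Of the windows in runs called lower in early Fra2, 15 of 292 held TGANTCA (5.14%), as did 14 of 372 in runs called lower in late Fra2 (3.76%). The runs called higher held only 3 windows at either time, and TGANTCA was in none of them. The peaks' own sequences were not analysed here.

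MicroRNA genes were part of 60 dense runs by annotation, and 175 mature sequences from 97 hairpins in 56 runs were matched in the RefSeq table. The mature sequences below belong to microRNAs well known in fibroblasts, with the seed, bases 2 to 8, in capitals. They are shown because each is a product of a run described here, and 2 pairs share a seed; the ATAC-seq reads do not measure the microRNAs themselves.
miR-29a-3p: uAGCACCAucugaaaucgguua
miR-29b-3p: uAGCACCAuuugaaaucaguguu
miR-132-3p: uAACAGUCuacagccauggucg
miR-212-3p: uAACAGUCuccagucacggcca
miR-21a-5p: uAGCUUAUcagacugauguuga
miR-199a-5p: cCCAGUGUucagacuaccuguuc
miR-214-3p: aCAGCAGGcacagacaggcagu

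The Mir29a and Mir29b-1 genes, whose products are known to target collagen transcripts, lay inside a run of 58 peaks at chr6:31039337-31090379 that overlapped no protein-coding gene and had Klf14 as its nearest, 80.347 kb away. Mir132 and Mir212 lay in an 18-peak run over Smg6 and Hic1 at chr11:75153170-75173771. Mir21a, whose product is abundant in fibroblasts, lay in a 29-peak run over Tubd1 and Vmp1 at chr11:86568352-86593487. Mir199a-2 and Mir214, a pair read together in mesenchymal cells, lay in a 13-peak run in Dnm3 at chr1:162215695-162228289.

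A dense run held a median of 12 peaks, with a range of 10 to 144, and spanned a median of 15.2 kb, with a range of 7.17 to 118 kb. Together the runs covered 13.8 Mb. The median gap between neighbours inside a run was 429 bases, against 4091 bases between all neighbouring peaks. Peaks filled a median of 43.3% of a run's span. At the edge of the rule, 206 chains had exactly 10 peaks and spanned a median of 11.7 kb, and 258 chains had 9 peaks and spanned 10.8 kb; 465 of the 11127 gaps within runs came within 500 bases of the limit of 3000. Nearly all runs sat on genes. A protein-coding gene overlapped 733 runs, 440 of them with 1 gene and 293 with 2 or more, up to 24. Of the 50 others, 29 overlapped a long noncoding RNA gene and 25 had a protein-coding gene within 10 kb. Of the member peaks, 19.4% lay within 1 kb of either end, the start or the 3′ end, of a protein-coding gene (called gene ends below), 56.5% in a gene body and 24.1% outside genes, against 12.6%, 46.9% and 40.5% of the other peaks. Chromosome 11 held 98 runs and chromosome X 3.

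Among the 10 largest runs were those over Myh9, Col5a1, Actn1, Tnc, Fn1 and Cd44. The run with most peaks, 144, lay over Myh9, the heavy chain of nonmuscle myosin II, with Apol9b and Apol8 beside it at chr15:77725642-77843305. Col5a1, a chain of type V collagen, had a run of 104 peaks at chr2:27953896-28054066. Actn1, the actin cross-linker alpha-actinin, had 103 peaks at chr12:80145799-80240598. Tnc, the matrix glycoprotein tenascin C, had 80 peaks at chr4:63946991-64036817. Fn1, fibronectin, had 74 at chr1:71573399-71645606 together with Atic. Cd44, a hyaluronan receptor, had 59 at chr2:102794854-102863710. A run of 76 peaks at Frmd8 on chr19:5786402-5852735 also covered the long noncoding RNA genes Malat1 and Neat1. The 58-peak run nearest to Klf14, described above, was the tenth by size. The others of the 10 largest, Mroh2a with Hjurp and Trpm8 on chromosome 1 and a run on the unplaced scaffold JH584304.1, are treated apart below because 1 library decided their values.

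Each library had between 6750614 and 25283489 reads in consensus peaks, so that a count of 3 reads, taken as the floor, equals 0.119 to 0.444 CPM, the count scaled to a common library size. The early control library 3 was the shallowest and stood apart: its correlation with the other early controls over log2 CPM was 0.783 and 0.789, against 0.896 or more for every other pair within a group. Results that use the early controls are therefore also given without it. Fibroblast marker genes were accessible in every library: 14 of 15 fibroblast marker genes had peaks within 5 kb, 252 in all, with a summed level of 1174 to 1369 CPM over the libraries. The 5 endothelial markers summed to 145 to 176 CPM, the 5 epithelial ones to 77.7 to 98.2, the 5 macrophage ones to 141 to 163, the 5 neuronal ones to 197 to 236 and the 5 muscle ones to 28.3 to 48.4 CPM. The lists differ in their number of genes and peaks, so these sums cannot be set side by side. Per gene, the median in the controls was 56.7 CPM for fibroblast markers, 47.7 for neuronal and 35.5 for endothelial ones. It was 27.1 CPM for macrophage, 6.74 for epithelial and 6.17 for muscle markers. Dense runs held peaks of 6 fibroblast markers (Col1a1, Prrx1, Twist2, Pdgfra, Vim and Fn1), of 1 macrophage marker (Cd68) and of no endothelial, epithelial, neuronal or muscle marker.

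Single member peaks were somewhat stronger than other peaks. Their median level was 3.9 CPM per peak in early Fra2 against 3.28 CPM for the other peaks, 4.16 against 3.26 in Ezh2 inhibitor, 4.33 against 3.23 in early control, 3.92 against 3.31 in late Fra2, and 4.18 against 3.12 in late control. Between 55.7% and 96.1% of member peaks overlapped a peak of a single library's deposited list, against 34.2% to 92.4% of the other peaks, and the lists ranged from 114359 to 305369 peaks, with the early control library 3 lowest.

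Fosl2, the gene the guides targeted, had 2 dense runs, and they behaved differently. The downstream run at chr5:32150004-32164539 held 14 peaks, covered the 3′ part of the gene and reached beyond it. Its summed level was 71.1, 66 and 78.5 CPM in early Fra2, against 43.7, 44.4 and 55.1 CPM in early control. In late Fra2 it was 52.9, 58 and 59.9 CPM, against 38.7, 35.4 and 35.1 CPM in late control. Every Fra2 library was above every control library of its time. The run rose by a log2 fold change of 0.60 ± 0.10 (SE) in early Fra2 and 0.65 ± 0.10 in late Fra2, with adjusted p = 2.38e-05 and 3.25e-05 by edgeR's quasi-likelihood test, and it kept both calls in all 14 alternative settings. With TMM from gene-end peaks and with cyclic loess offsets the values were 0.81 and 0.72 in early Fra2, and 0.88 at both settings in late Fra2. The change lay mainly past the end of the gene, which spans chr5:32136472-32157840. The 6 peaks of the run within the gene body had early log2 fold changes of -0.08 to 0.35, and none of them was called early; the one at chr5:32152949-32153450 was called in late Fra2, with 0.61 and adjusted p = 0.0478 by edgeR. Of the 8 peaks past the 3′ end, the one nearest to it, at chr5:32158186-32158687, held 8.25 CPM in early Fra2 against 3.84 CPM in early control and rose by 1.08 ± 0.18, adjusted p = 1.15e-05 by edgeR. In late Fra2 that peak held 7.73 CPM against 3.55 CPM in late control and rose by 1.13 ± 0.17, adjusted p = 1.29e-05. The peak with the largest early change, at chr5:32161859-32162360, held 6.54 CPM in early Fra2 against 2.01 CPM in early control, a rise of 1.81 ± 0.26 with adjusted p = 8.33e-07 by edgeR, and 3.36 CPM in late Fra2 against 1.55 CPM in late control, a rise of 1.11. Over the run 6 peaks were called higher early and 8 late, and 0 were lower. Ezh2 inhibitor libraries held 44.3, 40.3 and 43.1 CPM in this run, within the range of early control or just below it, with a log2 fold change of -0.15 and adjusted p = 0.461 by edgeR.

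The upstream run at chr5:32127461-32146688 held 18 peaks and covered the promoter and first part of the gene, the part of a gene where activating guides are usually placed. It held 159, 164 and 144 CPM in early Fra2 against 179, 163 and 133 CPM in early control, so the early libraries overlapped, with a log2 fold change of -0.03 and adjusted p = 0.827 by edgeR. In late Fra2 it held 133, 129 and 136 CPM against 151, 170 and 162 CPM in late control, without overlap, a value of -0.28 with adjusted p = 0.0193 by edgeR. Both values depended on the scaling: with TMM from gene-end peaks they were 0.17 and -0.05, and with cyclic loess offsets 0.23 and 0.09, so the direction of the run as a whole is not settled at either time. Single peaks differed. The peak over the transcription start at chr5:32136166-32136667, which covers the Fosl2 promoter shown above, held 12.7 CPM in early Fra2 against 8.34 CPM in early control and rose by 0.57 ± 0.16, adjusted p = 0.0119 by edgeR; in late Fra2 it held 8.78 CPM against 7.77 CPM in late control, a value of 0.17 with adjusted p = 0.522. Its upstream neighbour and the strongest peak of the run, at chr5:32135561-32136062, held 42.9 CPM in early Fra2 against 43.8 CPM in early control, and 38.1 CPM in late Fra2 against 48.5 CPM in late control, and was called at neither time. In all, 3 of the 18 peaks were called higher early, and 1 was called lower late, at chr5:32134904-32135405, with 15.6 CPM in late Fra2 against 22.1 CPM in late control and a value of -0.51, adjusted p = 0.0267 by edgeR. The 2 Fosl2 runs are 2 stretches of 1 gene and no replicates of each other. The distances of the guides from these peaks were not analysed here.

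Dense runs took a smaller share of the reads in every Fra2 and Ezh2 inhibitor library than in any control library of the same time. Dense runs took 7.02, 7.28 and 7.14% of the reads in peaks in early Fra2 libraries, against 7.71, 7.93 and 8.13% in early control libraries. They took 6.97, 7.01 and 7.19% in late Fra2, against 7.68, 7.82 and 7.7% in late control. In Ezh2 inhibitor they took 7.51, 7.49 and 7.44%. In each of the 3 comparisons every treated library was below every control library. The means were 7.14 ± 0.132% against 7.92 ± 0.207% (SD, n = 3 each) for early Fra2, 7.05 ± 0.116% against 7.73 ± 0.0725% for late Fra2 and 7.48 ± 0.0368% against 7.92 ± 0.207% for Ezh2 inhibitor. The differences of -0.781, -0.681 and -0.444 percentage points each had p = 0.1 in a two-sided exact permutation test, the smallest p that 3 against 3 libraries can give, so none can pass 0.05. Late control and early control overlapped, with a difference of -0.19 points and p = 0.2 by the same exact test.

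**Figure D1:**
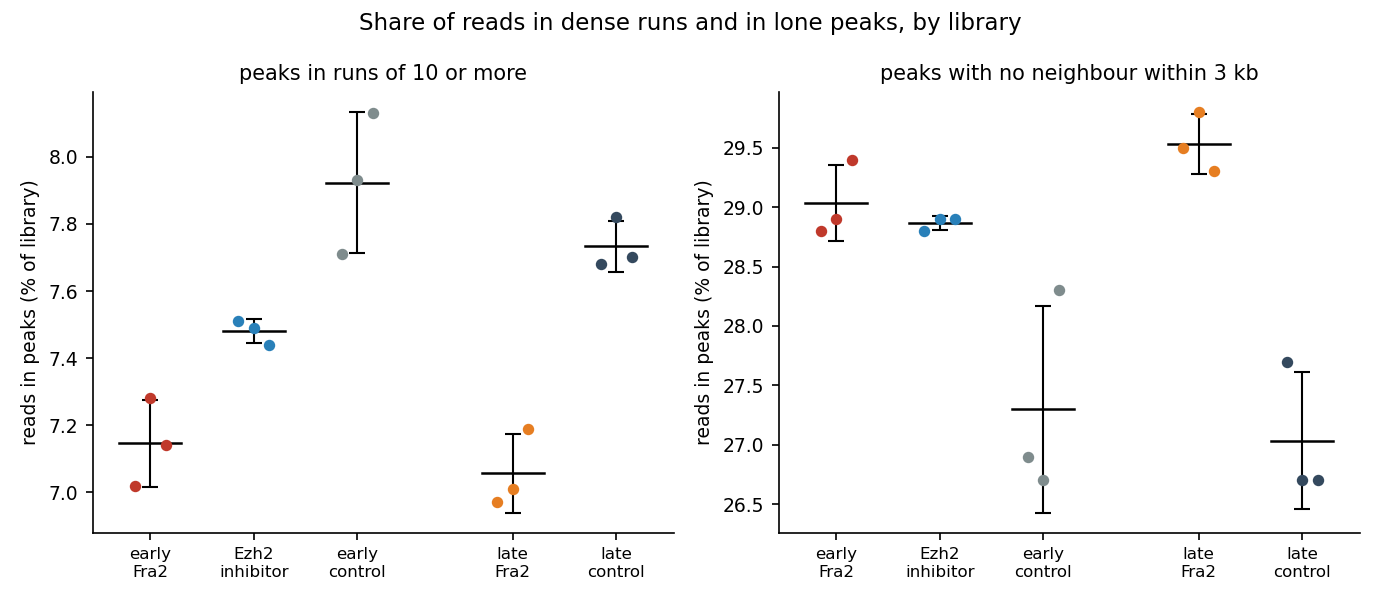
Percent of each library's reads in peaks that fell in dense runs (left) and in single peaks with no neighbour within 3000 bases (right); each point is a library, bars are group means with SD (n = 3), and the vertical axes do not start at 0. Early Fra2 (7.14%), Ezh2 inhibitor (7.48%) and late Fra2 (7.05%) lie below their controls (7.92% and 7.73%) for dense runs and above them for single peaks.

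Isolated sites took a larger share of reads in the treated groups. Single peaks took 29 ± 0.345% of reads in early Fra2 against 27.3 ± 0.867% in early control, 29.5 ± 0.257% in late Fra2 against 27 ± 0.619% in late control, and 28.9 ± 0.0505% in Ezh2 inhibitor. Chains of 2 to 4 peaks took 46.7% against 46.6%, 46.6% against 47.1%, and 46.3% against 46.6% in the 3 comparisons, and their libraries overlapped. Chains of 5 to 9 peaks took 17.1% in early Fra2 against 18.2% in early control, 16.8% in late Fra2 against 18.2% in late control, and 17.3% in Ezh2 inhibitor. Peaks at gene ends moved the same way over the whole genome: they took 21.4% against 24.8% in early Fra2 and early control, 20.7% against 24% in late Fra2 and late control, and 22.6% in Ezh2 inhibitor. Within dense runs, member peaks at gene ends took 1.91% against 2.22%, 1.85% against 2.16% and 2.05% against 2.22%. Member peaks away from gene ends took 5.23% against 5.7%, 5.2% against 5.57% and 5.43% against 5.7%, with overlapping libraries in the last comparison alone. Without the early control library 3 the difference in dense runs was -0.678 points for early Fra2 and -0.342 for Ezh2 inhibitor.

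In both Fra2 comparisons the share of member peaks called lower was above that of all peaks, and the share called higher was below it. In early Fra2 456 member peaks (3.83%) were called higher at an adjusted p under 0.05, where 10.1% of all peaks tested were, and 952 (7.99%) were called lower, where 4.92% of all were. In late Fra2 292 (2.45%) were called higher against 6.45% of all, and 718 (6.03%) lower against 3.54%. In Ezh2 inhibitor 89 (0.747%) were called higher against 0.557% of all, and 95 (0.798%) lower against 0.344%. The median log2 fold change of member peaks was -0.18 in early Fra2, -0.17 in late Fra2 and -0.08 in Ezh2 inhibitor, beside -0.02, 0.00 and 0.00 for the other peaks. The difference between those medians held under 3 ways of scaling the libraries, trimmed mean of M-values (TMM), DESeq2 size factors and TMM from gene-end peaks: -0.16 for early Fra2, -0.17 for late Fra2 and -0.08 to -0.09 for Ezh2 inhibitor. With cyclic loess offsets it was -0.15, -0.12 and -0.07.

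The zero point of these changes depended on the scaling. TMM from gene-end peaks moved the median change over all peaks (log2) to 0.18 in early Fra2, 0.23 in late Fra2 and 0.14 in Ezh2 inhibitor, where TMM from all peaks gave -0.03, -0.01 and 0.00. Member peaks then had medians of 0.04, 0.07 and 0.06, still below the other peaks at 0.19, 0.24 and 0.15. With that scaling 1180 of the 11910 member peaks were called higher and 241 lower in early Fra2, and 1049 and 158 in late Fra2. Of all 206367 consensus peaks, 39569 were called higher and 2839 lower in early Fra2, and 35487 and 1843 in late Fra2. At both times the share of member peaks called higher was thus below that of all peaks, and the share called lower was above it. Each scaling takes its zero point from the libraries' own counts, so a rise or fall of a run is relative under all of them. A call that held under each scaling did not depend on the choice among them, but it is no measure of an absolute change. TMM and DESeq2 size factors gave nearly the same values and are hardly separate checks. The runs described one by one below are marked by whether they held under each scaling.

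With the reads of all peaks of a chain summed, the medians under TMM stepped down from single peaks to dense runs. In early Fra2 the median log2 fold change was 0.05 for single peaks, 0.00 for chains of 2 to 4, -0.10 for chains of 5 to 9 and -0.15 for dense runs. In late Fra2 it was 0.11, -0.02, -0.15 and -0.20, and in Ezh2 inhibitor 0.07, -0.01, -0.09 and -0.10. Between late control and early control it was -0.03, 0.02, 0.02 and 0.01. Among the dense runs themselves the step did not go on: the 39 runs of 30 to 144 peaks had medians of -0.05 in early Fra2, -0.13 in late Fra2 and -0.02 in Ezh2 inhibitor, and the 544 runs of 10 to 14 peaks had -0.15, -0.20 and -0.10. With cyclic loess offsets the median of the dense runs lay above that of all peaks, at 0.04 against -0.04 in early Fra2, 0.10 against -0.02 in late Fra2 and 0.07 against 0.00 in Ezh2 inhibitor. Longer chains have more reads: dense runs were 373 of the 500 chains with the highest sums (74.6%) and 554 of the highest 1000 (55.4%), so chain length and total signal cannot be told apart in this measure.

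**Figure D2:**
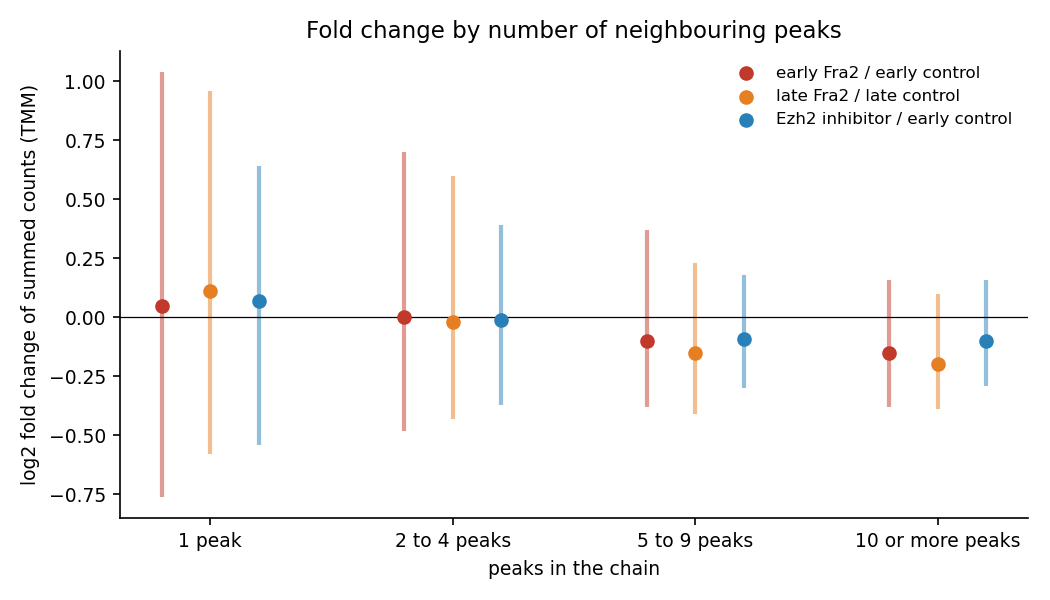
Median log2 fold change of chains (points) with the range from the 5th to the 95th percentile (lines) by the number of peaks in the chain, for each treatment against its controls, from reads summed over each chain and scaled by TMM. Medians step down from 0.05 to -0.15 in early Fra2 and from 0.11 to -0.20 in late Fra2 between single peaks and dense runs.

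By edgeR's quasi-likelihood test 19 dense runs (2.43%) were called higher in early Fra2, where 13.3% of all chains were, and 197 (25.2%) lower, where 6.39% of all were. In late Fra2 16 (2.04%) were called higher against 9.49% of all chains, and 268 (34.2%) lower against 5.36%. Dense runs carry more reads than most chains and so are easier to call, and the shares are to be read with that. Lack of overlap between groups was also common among the 783 dense runs under TMM. All treated libraries lay below all controls in 275 runs in early Fra2, 503 in late Fra2 and 234 in Ezh2 inhibitor. They lay above them in 35, 34 and 39 runs. Between late control and early control 88 runs were above and 60 below. Lack of overlap was not counted over all chains, and by itself it marks no single run. The split depended on the scaling: with TMM from gene-end peaks 184 runs were called higher and 36 lower in early Fra2, and 122 and 29 in late Fra2, so that 83.6% and 80.8% of called runs were higher, in place of 8.8% and 5.63%. With cyclic loess offsets, which fit the chains with most reads on their own, the counts were 164 higher and 48 lower in early Fra2, and 202 and 6 in late Fra2. Without the early control library 3, 28 runs were higher and 339 lower in early Fra2. With only the 2 groups compared in the fit, 7 were higher and 46 lower in early Fra2, and 18 and 405 in late Fra2.

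Under TMM, runs without a peak at a gene end had smaller decreases than runs with one. The 583 runs with such a peak had a median log2 fold change of -0.17 in early Fra2, with 9 called higher and 171 lower, and the 200 without had -0.05, with 10 higher and 26 lower. In late Fra2 the medians were -0.21 and -0.14. This split of the runs was not made under the other scalings. TMM from gene-end peaks moved the median of all dense runs in early Fra2 from -0.15 to 0.06, so which class changed more is not settled. Peaks at gene ends had like medians inside and outside dense runs, of -0.23 and -0.22 in early Fra2 and -0.24 and -0.22 in late Fra2. Gene-body peaks differed, at -0.16 inside runs and -0.01 outside them in early Fra2, and at -0.15 and 0.02 in late Fra2. Peaks outside genes differed most, at -0.13 and 0.07 in early Fra2, and at -0.14 and 0.09 in late Fra2. The gap was also present at each level of signal: over 5 classes of mean CPM with equal numbers of peaks, from low to high, member peaks had medians of -0.28, -0.24, -0.19, -0.15 and -0.15 in early Fra2, beside 0.01, -0.04, -0.01, 0.01 and -0.06 for the other peaks.

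Runs that rose in early Fra2 were few. The genes they lay over or nearest to included those for the growth factor Csf1, the matrix protein tenascin C and several actin regulators. Such genes as groups did not rise under TMM. Of 48 cytoskeleton and contractile runs 3 were higher and 9 lower, and of 21 matrix runs 1 was higher and 2 lower. These counts changed with the scaling, as given below. Of the 19 called, 18 were called higher under all 4 scalings (TMM, DESeq2, TMM from gene-end peaks and cyclic loess) and 16 without the early control library 3. TMM from gene-end peaks and cyclic loess offsets moved the median of all dense runs up, from -0.15 to 0.06 and 0.04. A run called higher under TMM was thus likely to keep its call, so this is a weak check for rises. Beside the downstream Fosl2 run the 19 included runs at Ndrg1, Ube3c, Enah, Ywhaz, Csf1, Tnc, Itgb1, Cald1 and Plin2. Ndrg1 encodes a stress-responsive cytoplasmic protein, and its run of 10 peaks lay at chr15:66924375-66932826. It held 37.7, 39.4 and 45 CPM in early Fra2, 38.5, 34.2 and 39.9 CPM in Ezh2 inhibitor and 23.8, 26.9 and 22 CPM in early control. All early Fra2 libraries and all Ezh2 inhibitor libraries were above all early controls. The run rose by 0.74 ± 0.11 in early Fra2, adjusted p = 4.47e-06 by edgeR, and 5 of its peaks were called higher and none lower.

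Enah encodes an actin regulator of the Ena/VASP family, and a run of 15 peaks lay 1.514 kb from it at chr1:181880663-181894870, with all its peaks outside the gene. It held 62.4, 72.7 and 70.3 CPM in early Fra2 against 35.3, 45 and 54.2 CPM in early control, and 73.6, 70.1 and 67 CPM in late Fra2 against 50.5, 44.1 and 40 CPM in late control. The groups did not overlap at either time, and in early control the 3 libraries were spread widely. The log2 fold change was 0.63 ± 0.11 in early Fra2 and 0.65 ± 0.11 in late Fra2, adjusted p = 5.21e-05 and 7.56e-05 by edgeR, and 10 and 7 of its peaks were called higher. A run of 10 peaks between genes at chr5:29698421-29712123, 22.344 kb from the ubiquitin ligase gene Ube3c, held 77.7, 81.6 and 78.2 CPM in early Fra2 against 53, 43.7 and 52.3 CPM in early control. The late Fra2 libraries held 84.8, 79.4 and 87.1 CPM against 63.2, 65.3 and 54.2 CPM in late control. No library overlapped between groups, and the log2 fold change was 0.67 ± 0.10 in early Fra2 and 0.46 ± 0.09 in late Fra2, adjusted p = 2.48e-06 and 0.000886 by edgeR. Both runs kept their calls at both times in all 14 alternatives.

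Csf1 had a run of 37 peaks at chr3:107727424-107765695 that covered the whole gene and its surroundings. It held 171, 203 and 197 CPM in early Fra2, 194, 210 and 193 CPM in Ezh2 inhibitor and 132, 139 and 151 CPM in early control. In late Fra2 it held 221, 227 and 244 CPM, against 164, 176 and 168 CPM in late control. Each treated group lay above its controls in every library. The run rose by 0.44 ± 0.08 in early Fra2 and 0.45 ± 0.08 in late Fra2, adjusted p = 7.85e-05 and 0.000147 by edgeR, and in all 14 alternatives; 14 and 15 of its 37 peaks were called higher and none lower. The Csf1 promoter shown above holds neither motif. The run over Tnc held 252, 265 and 268 CPM in early Fra2 against 210, 218 and 223 CPM in early control, and 334, 334 and 313 CPM in late Fra2 against 281, 257 and 239 CPM in late control. Its libraries did not overlap either, and its log2 fold change was 0.27 ± 0.07 in early Fra2, with 17 of 80 peaks called higher and none lower, adjusted p = 0.00511 by edgeR; with only the 2 groups in the fit that p was 0.0839. A run of 10 peaks at Ywhaz, the 14-3-3 zeta gene, held 55.5, 56.4 and 58.1 CPM in early Fra2 against 41.9, 40.9 and 34.8 CPM in early control, a log2 fold change of 0.52 ± 0.09 with adjusted p = 0.000109 by edgeR, which was 0.01 when only gaps of up to 1000 bases were chained.

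**Figure D3:**
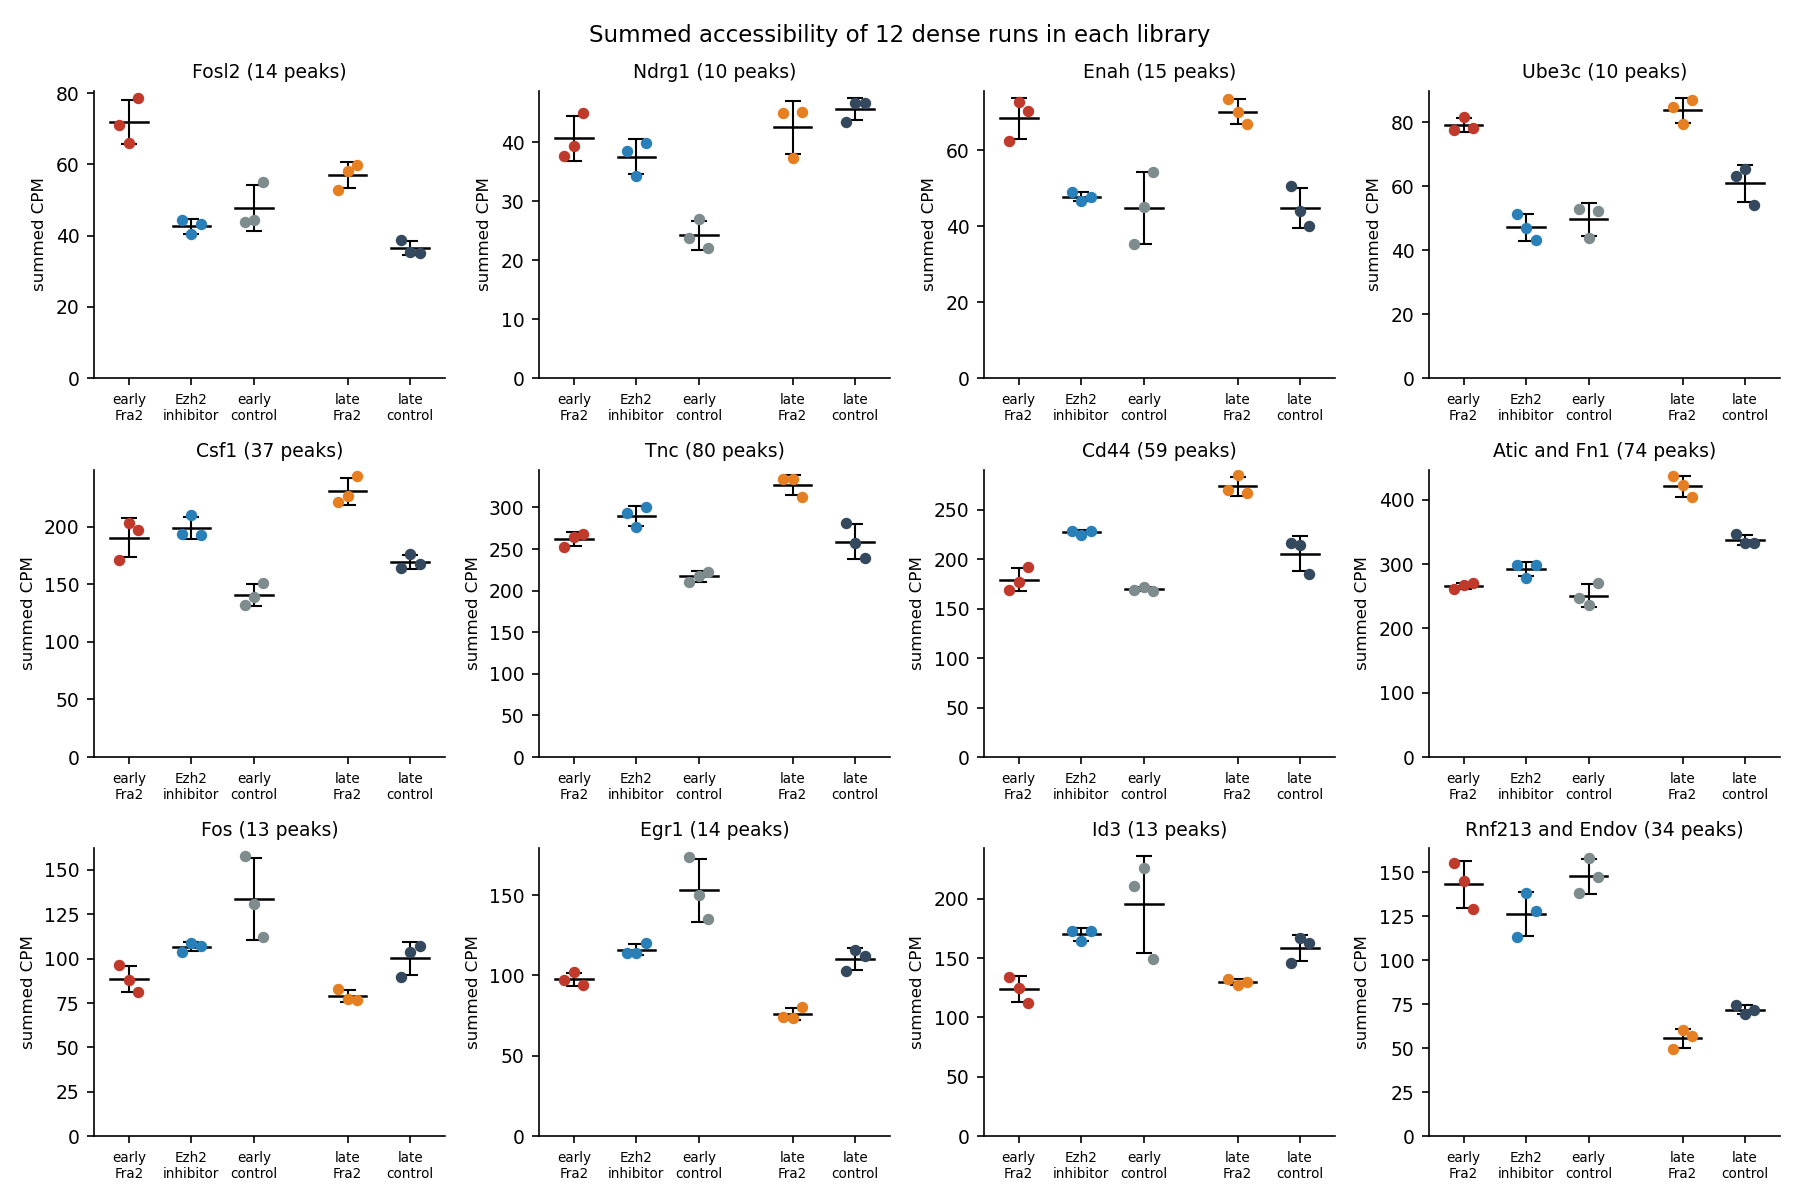
Summed level in CPM (TMM-scaled, vertical axis from 0) of 12 dense runs in each library (points), with group means and SD (n = 3), in the order early Fra2, Ezh2 inhibitor, early control, late Fra2, late control. The runs at Fosl2, Enah, Ube3c and Csf1 lie above the controls at both times, that at Ndrg1 at the early time alone, and the Egr1 run below them at both times.

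Among runs called lower in early Fra2 whose libraries did not overlap those of early control, the runs at Egr1, Fos, Id3, Cdkn1a and Septin11 with Ccni had the largest decreases. Of the 197 called lower, 27 were called lower under all 4 scalings, and 182 kept their sign. They included the immediate early genes Egr1, Fos, Nr4a1 and Btg2, the BMP-induced inhibitors Id1 and Id3, the cell cycle inhibitor gene Cdkn1a, the Polycomb gene Cbx8, and Zfp36 with Plekhg2. Id3, which encodes an inhibitor of helix-loop-helix factors, had a run of 13 peaks at chr4:136140250-136149937. It held 134, 125 and 112 CPM in early Fra2 against 211, 226 and 149 CPM in early control, where the library 3 was lowest and still above all Fra2 libraries. It fell by 0.66 on the log2 scale with an SE of 0.10, adjusted p = 3.05e-06 by edgeR, and 9 of its peaks were called lower. The late Fra2 libraries held 132, 127 and 130 CPM against 146, 167 and 163 CPM in late control, a log2 fold change of -0.29 that turned to 0.08 with cyclic loess offsets.

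Egr1, a zinc finger factor induced within minutes by serum, had a run of 14 peaks at chr18:34855047-34871404. It held 97.3, 102 and 93.8 CPM in early Fra2, 114, 114 and 120 CPM in Ezh2 inhibitor and 174, 150 and 135 CPM in early control. In late Fra2 it held 74.1, 73.7 and 80.3 CPM against 103, 116 and 112 CPM in late control. Every treated library was below every control of its time. The run fell by 0.65 in early Fra2 and by 0.54 in late Fra2 on the log2 scale, adjusted p = 5.49e-07 and 4.91e-05 by edgeR, under all 4 scalings and in all 14 alternatives at both times. Of its peaks, 11 were called lower in early Fra2 and 5 in late Fra2. The largest single change was at the peak chr18:34865914-34866415, with 3.98 ± 0.417 CPM in early Fra2 and 10 ± 1.97 CPM in early control (SD, n = 3 each).

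Fos itself, from the family that Fra2 belongs to, had a run of 13 peaks at chr12:85471981-85488163. It held 96.3, 88 and 81.3 CPM in early Fra2 against 158, 131 and 112 CPM in early control, and 82.9, 77.2 and 76.9 CPM in late Fra2 against 89.5, 104 and 107 CPM in late control. The groups did not overlap. It fell by 0.60 in early Fra2 on the log2 scale, adjusted p = 1.27e-05 by edgeR and in all 14 alternatives; the late value of -0.35, adjusted p = 0.0106 by edgeR, lost its call in 6 of 14 alternatives and was -0.02 at its weakest. Cdkn1a, which encodes p21, had a run of 12 peaks at chr17:29090721-29101044 with 77.5, 75.5 and 69.1 CPM in early Fra2 against 107, 115 and 101 CPM in early control. It fell by 0.54 in early Fra2 on the log2 scale, adjusted p = 1.11e-05 by edgeR, with 8 of its peaks called lower; the Ezh2 inhibitor libraries held 119, 121 and 125 CPM. The 11-peak run over Septin11 and the cyclin gene Ccni held 19.1, 23.2 and 22.3 CPM in early Fra2 against 27.3, 35 and 40.4 CPM in early control and fell by 0.65 on the log2 scale, adjusted p = 9.81e-05 by edgeR. The Cbx8 run held 42.3, 41.3 and 43.2 CPM against 55.6, 52.8 and 74 CPM, with the control library 3 highest, and fell by 0.51, adjusted p = 0.00048 by edgeR.

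Among the genes whose promoters are printed above, Btg2 had a run of 17 peaks with 107, 116 and 98.1 CPM in early Fra2, 152, 152 and 166 CPM in Ezh2 inhibitor, and 148, 155 and 120 CPM in early control. The early Fra2 libraries lay below all early controls and the Ezh2 inhibitor libraries did not. It fell by 0.40 in early Fra2 on the log2 scale with adjusted p = 0.000944 by edgeR, and the value was -0.20 with TMM from gene-end peaks and -0.17 with cyclic loess offsets. The run over Csrnp1 and Ttc21a, 24 peaks, held 167, 173 and 145 CPM in early Fra2 against 206, 186 and 178 CPM in early control, and 140, 142 and 133 CPM in late Fra2 against 172, 181 and 178 CPM in late control. The groups did not overlap, but the values of -0.24 and -0.35 became -0.03 and -0.12 with TMM from gene-end peaks and turned to 0.03 at both times with cyclic loess offsets. The run over Zyx and Epha1, 32 peaks, behaved likewise: its libraries did not overlap at either time, and its values of -0.18 and -0.23 became 0.02 and 0.00 with TMM from gene-end peaks and 0.12 and 0.17 with cyclic loess offsets.

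In late Fra2 the 16 runs called higher were called higher under all 4 scalings. This check was weak for rises here too. The median of all dense runs moved from -0.20 to 0.04 with TMM from gene-end peaks and to 0.10 with cyclic loess offsets. Beside Fosl2, Enah, Ube3c, Csf1 and Tnc the 16 included runs of Cd44, Itgb1, Fn1, Thbs1, Hmga2, Tpm1 and Ptgs2. The Cd44 run held 270, 285 and 267 CPM in late Fra2 against 217, 215 and 185 CPM in late control, and 169, 177 and 192 CPM in early Fra2 against 169, 172 and 168 CPM in early control. The late groups stood apart and the early ones overlapped. It rose by 0.41 ± 0.07 in late Fra2, adjusted p = 0.000204 by edgeR, with 10 of 59 peaks called higher; the early value was 0.08, and the difference between the times, 0.34, had adjusted p = 0.187. The run of Fn1 and Atic held 436, 422 and 404 CPM in late Fra2 against 346, 332 and 333 CPM in late control, and 261, 268 and 270 CPM in early Fra2 against 247, 236 and 270 CPM in early control. It rose by 0.32 ± 0.07 in late Fra2, adjusted p = 0.0013 by edgeR, with 10 of 74 peaks called higher.

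A run of 12 peaks 2.75 kb from Itgb1, the integrin beta 1 gene, at chr8:128736329-128746579 held 86.9, 80.1 and 77.2 CPM in late Fra2 against 57.5, 65.9 and 55.2 CPM in late control. It rose by 0.45 with adjusted p = 0.000906 by edgeR and in all 14 alternatives. In early Fra2 its log2 fold change of 0.26 had adjusted p = 0.047, and 0.0815 without the early control library 3. The run of Thbs1, the gene for the matricellular protein thrombospondin 1, and Fsip1 held 254, 230 and 253 CPM in late Fra2 against 185, 198 and 203 CPM in late control, a rise of 0.33 ± 0.08, adjusted p = 0.00606 by edgeR, with 13 of 32 peaks called higher. It held 276, 266 and 242 CPM in early Fra2 against 297, 268 and 209 CPM in early control, a value of 0.01 with adjusted p = 0.92 by edgeR. From early control to late control this run fell by 0.41 on the log2 scale, adjusted p = 0.00346 by edgeR. The late Fra2 libraries thus lay within the range of early control. A 42-peak run in Hmga2, the gene for an architectural chromatin protein, at chr10:120408475-120453245 held 218, 209 and 227 CPM in late Fra2 against 162, 180 and 161 CPM in late control, and 154, 162 and 151 CPM in early Fra2 against 146, 150 and 159 CPM in early control. Its late libraries stood apart and its early ones overlapped. The late value was 0.38 ± 0.07 with adjusted p = 0.000628 by edgeR, and the early value 0.04 with adjusted p = 0.738.

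Few late decreases held under every scaling. Of the 268 runs called lower in late Fra2, 6 were called lower under all 4 scalings: Egr1, 2 runs in Gse1, and those at Slc25a28, Zmiz1 and Csrp1. Gse1 encodes a nuclear protein of a corepressor complex and held 4 dense runs, with late log2 fold changes of -0.35, -0.44, -0.56 and -0.50. The 19-peak Gse1 run starting at chromosome 8 position 120482307 held 60.8, 60.9 and 63.3 CPM in late Fra2 against 84.5, 98.3 and 90.3 CPM in late control, and fell by 0.56 on the log2 scale, adjusted p = 3.63e-05 by edgeR. Slc25a28, a mitochondrial iron carrier gene, had a run that held 84.8, 89.6 and 81.8 CPM in late Fra2 against 111, 132 and 124 CPM in late control and fell by 0.52, adjusted p = 9.34e-05 by edgeR. Both kept their late calls in all 14 alternatives. Zfpm1, a GATA cofactor gene, had a run of 25 peaks with 154, 147 and 165 CPM in late Fra2 against 205, 239 and 230 CPM in late control, a log2 fold change of -0.53 with adjusted p = 9.56e-06 by edgeR; with cyclic loess offsets it was -0.14, adjusted p = 0.0684. Col1a1, the type I collagen gene, had a run of 35 peaks with 197, 183 and 195 CPM in late Fra2 against 232, 237 and 272 CPM in late control, a value of -0.36 with adjusted p = 0.0009 by edgeR that turned to 0.05 with cyclic loess offsets.

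**Figure D4:**
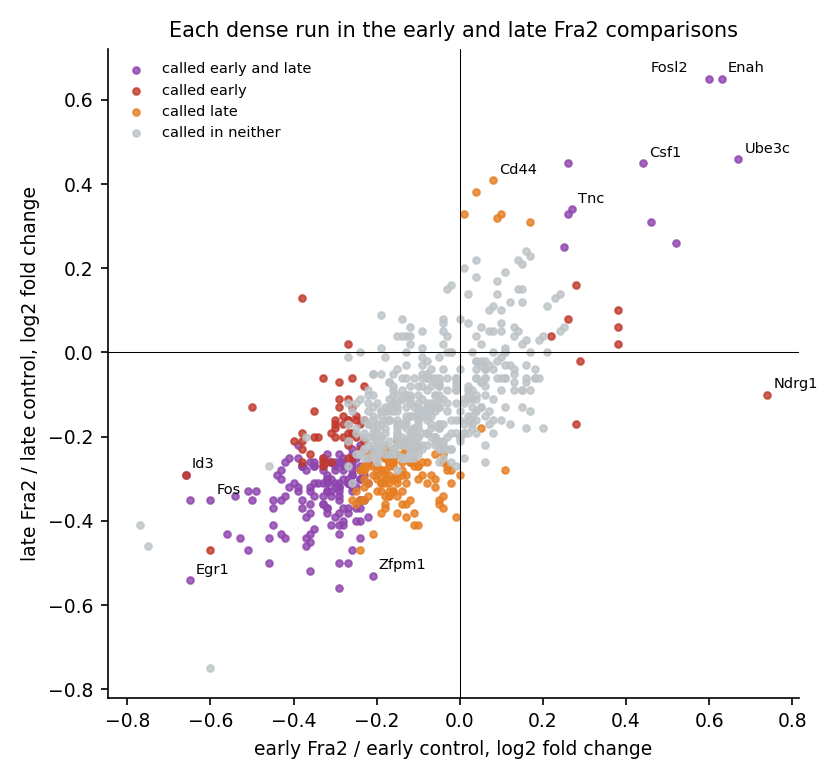
Log2 fold change of each of the 783 dense runs in early Fra2 against early control (horizontal) and in late Fra2 against late control (vertical), with runs called at neither, 1 or both times in different colours and named runs labelled. The runs at Fosl2, Enah, Ube3c and Csf1 lie above 0 on both axes, that at Egr1 lies below 0 on both, and the Ndrg1 run lies at 0.74 and -0.10.

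Early and late Fra2 use different controls. Of the 19 runs called higher in early Fra2, 10 (52.6%) were also called higher in late Fra2, where they were 62.5% of those called. Of the 197 called lower in early Fra2, 145 (73.6%) were also called lower in late Fra2, 54.1% of those called. Taken with its sign, the late log2 fold change was called below the early one for 1 dense run, Ndrg1, where 0.0961% of all chains were called so. It was called above the early one for 0 runs, where 0.0103% of all chains were. At an unadjusted p under 0.05 by edgeR, it was above for 10 runs and below for 40, and DESeq2 called 1 above and 1 below. The Ndrg1 run held 45, 37.4 and 45.1 CPM in late Fra2 and 43.5, 46.7 and 46.7 CPM in late control, so its late libraries overlapped and all stood near the early Fra2 level. The effect was 0.84 lower on the log2 scale at the late time than at the early one, with an SE of 0.15 and adjusted p = 0.0092 by edgeR. Of the member peaks, 4 had a late log2 fold change called above the early one and 5 below it, where 0.0116% and 0.0824% of all peaks did. This order is one of sign and not of size. The Zfpm1 peaks called below went from 0.63 and 0.55 in early Fra2 to -0.70 and -0.68 in late Fra2. The Id1 peaks called above went from -0.85 and -1.11 to 0.27 and 0.25.

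Late control and early control differed at some runs. Late control had 20 runs (2.55%) called higher than in early control, where 2.68% of all chains were, and 16 (2.04%) lower, where 1.58% were; 209 member peaks were higher and 241 lower, against 2.05% and 1.24% of all peaks. The runs that rose were at Ndrg1, Hmga2, Slc29a3 with Unc5b, and Fn1 among others. The Ndrg1 run rose by 0.90 ± 0.11 in late control, adjusted p = 3.57e-06 by edgeR, with 7 of its 10 peaks called higher. The run of Fn1 and Atic rose by 0.43, adjusted p = 0.000264 by edgeR, with 13 peaks called higher. A 19-peak run in Hmga2 held 94.9, 100 and 82.4 CPM in late control against 62.3, 65.6 and 69.1 CPM in early control, a rise of 0.50 with adjusted p = 0.000889 by edgeR. With only the 2 control groups in the fit, 1 run was called higher, Ndrg1, and 2 lower.

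The largest decreases in late control were at Rnf213 and Isg15. Rnf213, an interferon-induced ubiquitin ligase gene, had with Endov a run of 34 peaks at chr11:119468022-119504122 that held 74.3, 69.1 and 71.9 CPM in late control against 138, 158 and 147 CPM in early control. It fell by 1.04 on the log2 scale with an SE of 0.09, adjusted p = 9.21e-10 by edgeR, and 25 of its 34 peaks were called lower and none higher. The run of Isg15, an interferon-induced ubiquitin-like protein gene, with Agrn and Perm1 held 67.4, 75.2 and 83 CPM in late control against 120, 123 and 115 CPM in early control and fell by 0.67, adjusted p = 1.18e-05 by edgeR. Both calls held in all 14 alternatives. The Rnf213 run was lower still in late Fra2, with 49.5, 60.2 and 56.8 CPM, a log2 fold change of -0.37 with adjusted p = 0.00481 by edgeR, but of -0.14 and -0.05, and not called, with TMM from gene-end peaks and cyclic loess offsets. The runs of Egr1, Fos, Btg2, Nr4a1, Id1 and Cdkn1a were also lower in late control, by 0.47, 0.42, 0.43, 0.32, 0.36 and 0.32 on the log2 scale, and were called under all 4 scalings; the early controls are the shared reference of this comparison and of early Fra2.

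Few runs were called in Ezh2 inhibitor, and only while all 15 libraries shared 1 estimate of spread. There were 7 runs called higher (0.894%, where 0.687% of all chains were) and 19 lower (2.43%, where 0.423% were). With only the 6 libraries compared in the fit, 0 runs were called either way by edgeR's test, 16 were higher and 175 lower at an unadjusted p under 0.05, and 10 peaks of the whole genome were called higher and 1 lower. By DESeq2 9 runs were higher and 53 lower, by limma on the mean log2 CPM of a run's peaks 2 and 0, and with TMM from gene-end peaks 70 and 9. Without the early control library 3, 20 were higher and 155 lower. The 7 called higher were so under all 4 scalings: Itgb1, Ndrg1, Csf1, Cpm with Mdm2, Cd44, Tnc, and the run that holds Flnc. For rises this is again a weak check. The median of all dense runs moved from -0.10 to 0.04 with TMM from gene-end peaks and to 0.07 with cyclic loess offsets. The Itgb1 run held 76, 72.2 and 78.1 CPM in Ezh2 inhibitor against 49.9, 49.2 and 42.4 CPM in early control, a log2 fold change of 0.67 ± 0.09 with adjusted p = 0.000138 by edgeR and 0.098 in the fit of the 6 libraries. The Cd44 run held 229, 225 and 229 CPM in Ezh2 inhibitor against 169, 172 and 168 CPM in early control, a value of 0.42 with adjusted p = 0.00405 by edgeR and 0.14 in the fit of the 6 libraries. The Cpm and Mdm2 run, at the gene for the p53 ubiquitin ligase, held 52.9, 52.2 and 55.6 CPM in Ezh2 inhibitor against 39.7, 36.6 and 39.9 CPM in early control, a value of 0.47 with adjusted p = 0.0141 by edgeR and 0.145 in the fit of the 6 libraries. In all of these the groups did not overlap. Early Fra2 and Ezh2 inhibitor share their early controls, so runs high in both, such as Ndrg1 and Csf1, are 2 readings against 1 set of 3 libraries.

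Of the 19 runs called lower in Ezh2 inhibitor, Egr1 was the single one called under all 4 scalings, with -0.41 and adjusted p = 0.0147 by edgeR and 0.145 in the fit of the 6 libraries. The Col1a1 run held 190, 189 and 193 CPM in Ezh2 inhibitor against 255, 265 and 238 CPM in early control, a value of -0.41 with adjusted p = 0.00635 by edgeR and 0.14 in that fit. The Hox clusters are textbook targets of Ezh2. None of their 7 runs was called in Ezh2 inhibitor; the largest, 55 peaks over Hoxb2 to Hoxb6, had a log2 fold change of -0.21 with adjusted p = 0.118 by edgeR.

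A pair of the largest runs rested on 1 library. The run over Mroh2a, Hjurp and Trpm8, with 114 peaks, held 491, 657 and 1375 CPM in the early controls, the last in library 3. Its log2 fold changes of -0.60 in early Fra2 and -0.78 in Ezh2 inhibitor were -0.05 and -0.23 without that library. The run of 81 peaks on JH584304.1 held 1337, 1924 and 3649 CPM in the early controls, and its value of -0.79 in Ezh2 inhibitor was -0.30 without library 3. The share of reads in dense runs without the 2 scaffold runs was 6.97% in early Fra2 against 7.68% in early control, 6.9% in late Fra2 against 7.55% in late control, and 7.34% in Ezh2 inhibitor, again with no overlap between libraries.

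A run did not always move as a block. In early Fra2 322 runs had only lower calls among their peaks, 142 only higher, 127 both and 192 none. In late Fra2 the counts were 333, 102, 45 and 303. The median SD of the peak log2 fold changes within a run was 0.33 in early Fra2 and 0.28 in late Fra2, and the SD of the run values was 0.18 and 0.16. Single peaks are measured less precisely than runs. In the downstream Fosl2 run early SEs were 0.17 to 0.30 for peaks and 0.10 for the run. These SDs therefore cannot show by themselves that peaks of a run differed. Member peaks had SDs of 0.39 against 0.51 for other peaks in early Fra2 and 0.35 against 0.44 in late Fra2. They also had higher levels, and the part of the difference due to that was not tested. In the Enah run the log2 fold change of single peaks in early Fra2 ran from 0.03 at chr1:181888764-181889265, with 13.1 ± 0.565 CPM in early Fra2 and 12.9 ± 0.905 CPM in early control, to 1.66 at chr1:181882875-181883376, with 2.97 ± 0.125 CPM and 1.05 ± 0.579 CPM. The strongest peak of that run was thus among those that did not pass the test. In the Fn1 and Atic run a pair of neighbours near its end, at chr1:71643279-71643780 and chr1:71644163-71644664, had values of -0.74 and -0.63 in early Fra2 and 0.81 and 1.02 in late Fra2. These 2 peaks thus lay below early control at the early time and above late control at the late time.

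**Figure D5:**
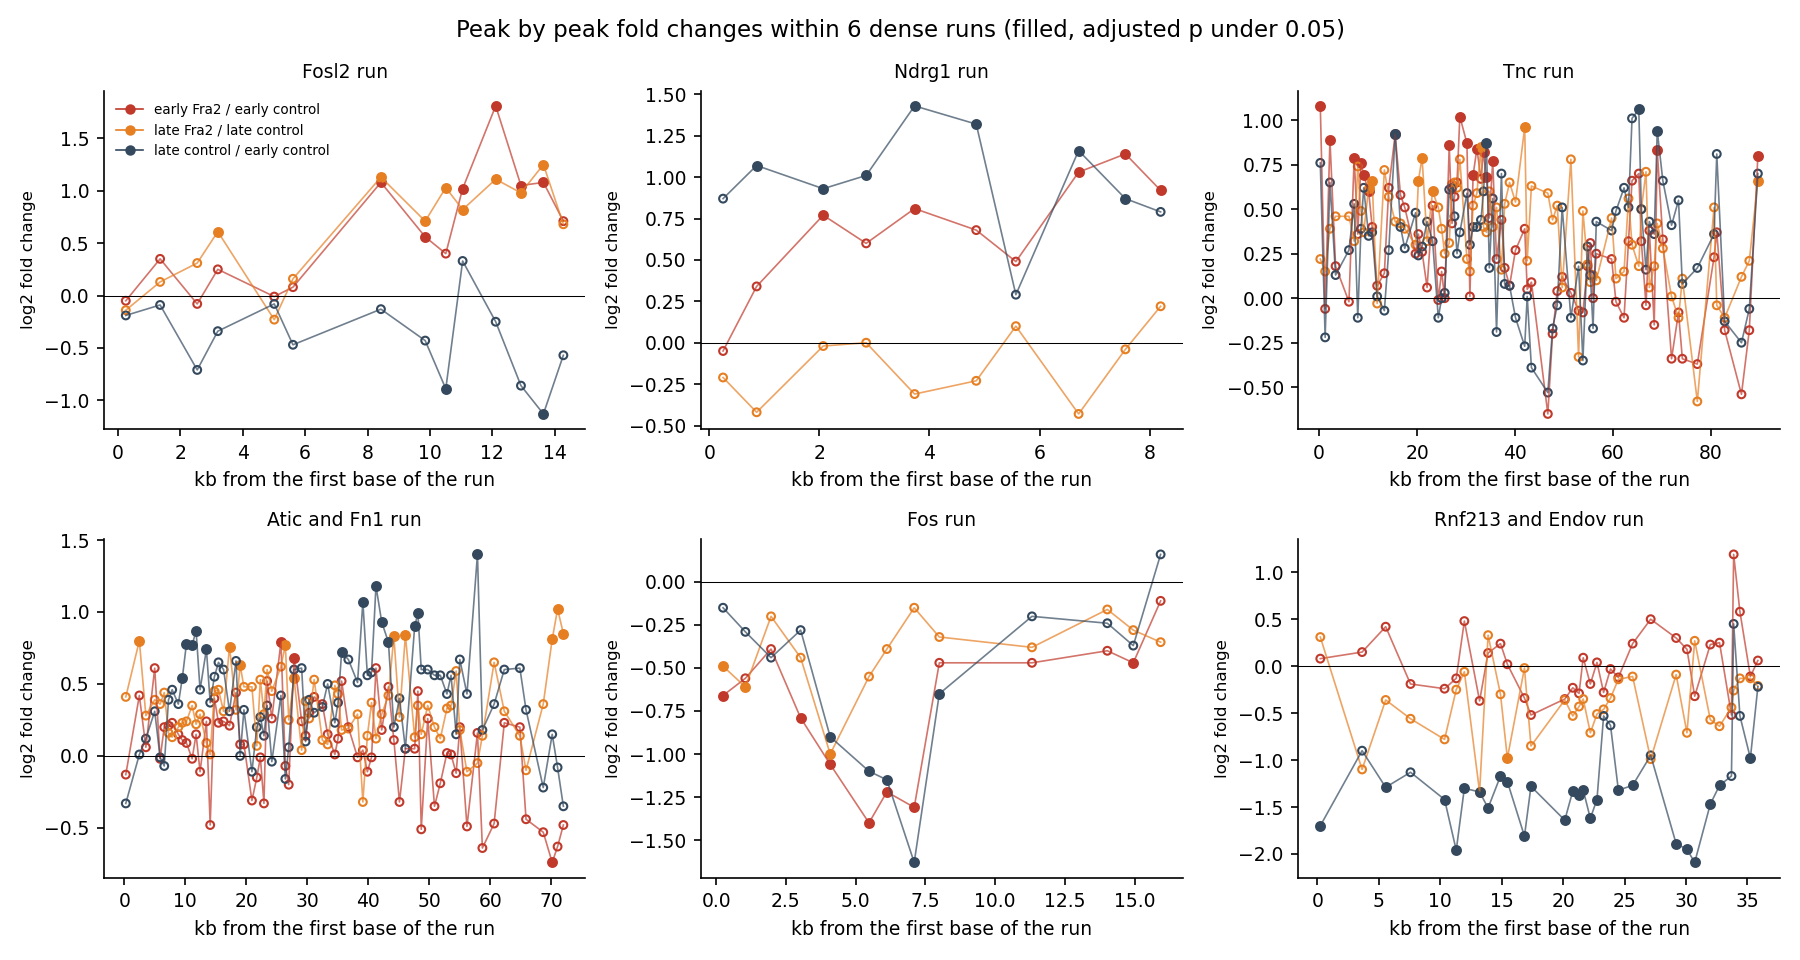
Log2 fold change of each peak along 6 dense runs (the downstream Fosl2 run, Ndrg1, Tnc, Atic with Fn1, Fos, and Rnf213 with Endov) by distance in kb from the first base of the run, for early Fra2, late Fra2 and late control against their references; filled points were called at an adjusted p under 0.05. Calls cover 5 of 10 peaks of the Ndrg1 run in early Fra2 and 25 of 34 peaks of the Rnf213 and Endov run in late control.

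By gene group, counts in early Fra2 and then late Fra2 read as follows, beside medians of -0.15 and -0.20 over all dense runs. Of all dense runs, 2.43% were called higher and 25.2% lower in early Fra2, and 2.04% and 34.2% in late Fra2. With TMM from gene-end peaks, 184 of all 783 runs were higher and 36 lower in early Fra2, and 122 and 29 in late Fra2. With cyclic loess offsets the counts were 164 and 48, then 202 and 6. A list near the share of all runs under the same scaling shows nothing of its own. Of 18 runs at AP-1 target, wound and protease genes, 2 were called higher and 2 lower in early Fra2, and 6 and 1 in late Fra2, with medians of 0.05 at both times. With TMM from gene-end peaks 11 of these were higher and 0 lower at each time. Of 10 runs at AP-1 and partner genes, 1 was higher and 5 lower at both times, with medians of -0.22 and -0.21; the higher one was the downstream Fosl2 run. The run over Junb and 3 neighbours held 214, 206 and 189 CPM in early Fra2 against 300, 285 and 232 CPM in early control, a value of -0.43 with adjusted p = 0.000111 by edgeR that was -0.22 with TMM from gene-end peaks and -0.11 with cyclic loess offsets; its late value of -0.28 turned to 0.14 with cyclic loess offsets. The run of Fosl1 had -0.21 with adjusted p = 0.0252 by edgeR in early Fra2, which was -0.02 with TMM from gene-end peaks and turned to 0.09 with cyclic loess offsets. Of this list 3 runs were lower in early Fra2 and 0 in late Fra2 with TMM from gene-end peaks. Of 20 runs at immediate early and stress genes, 0 were higher and 9 lower at each time, with a median of -0.21 at both; with TMM from gene-end peaks 2 were higher and 5 lower in early Fra2, and 2 and 2 in late Fra2.

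Of 21 runs at extracellular matrix genes, 1 was higher and 2 lower in early Fra2, and 3 and 7 in late Fra2, with medians of -0.04 and -0.19. Of 48 runs at cytoskeleton and contractile genes, 3 were higher and 9 lower in early Fra2, and 3 and 17 in late Fra2, with medians of -0.10 and -0.12. With TMM from gene-end peaks these became 10 and 0, then 3 and 0, for the matrix runs, and 19 and 1, then 18 and 4, for the cytoskeleton runs. Of 14 runs at mesenchymal transcription factor genes, none was called in early Fra2 and 3 were lower in late Fra2, with medians of -0.11 and -0.17; with TMM from gene-end peaks 1 and 2 were higher and 0 lower. Of 13 runs at YAP and TEAD targets, 3 were lower in early Fra2 and 2 in late Fra2, with medians of -0.13 and -0.15; with TMM from gene-end peaks 4 and 3 were higher and 0 lower. Of 11 runs at TGF-beta pathway genes, 5 were lower at each time, Id1 and Id3 among the early ones, with medians of -0.17 and -0.26; with TMM from gene-end peaks 1 was higher and 3 lower in early Fra2, and 3 and 0 in late Fra2, where cyclic loess offsets gave 4 and 0. Of 8 runs at growth factor and receptor genes, 1 was higher at each time, Csf1, and 1 was lower in early Fra2, with medians of -0.17 and -0.08; with TMM from gene-end peaks 3 were higher and 0 lower at each time.

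Hox and Polycomb runs were called lower in part, and fewer were so with TMM from gene-end peaks. Of 7 Hox runs, 3 were lower in early Fra2 and 4 in late Fra2, with medians of -0.21 and -0.22. The 55-peak Hoxb run held 190, 203 and 200 CPM in early Fra2 against 241, 250 and 270 CPM in early control, and 207, 207 and 227 CPM in late Fra2 against 256, 287 and 262 CPM in late control. Its groups did not overlap. Relative to the average peak it fell by 0.36 in early Fra2 and 0.33 in late Fra2 on the log2 scale, adjusted p = 0.000374 and 0.00185 by edgeR; with TMM from gene-end peaks the values were -0.16 and -0.09, and with cyclic loess offsets -0.06 and 0.09, so the late direction flipped. All 4 runs at PRC2 and PRC1 subunit genes, Ring1, Pcgf2 and Cbx8 among them, were lower at both times, with medians of -0.31 and -0.32; with TMM from gene-end peaks 1 was lower in early Fra2 and 0 in late Fra2. Of 3 runs at Polycomb-bound developmental genes, 1 was lower in early Fra2 and 2 in late Fra2, with medians of -0.14 and -0.28. Of 9 runs at senescence and p53 target genes, 2 were lower at each time, with medians of -0.16 and -0.20. Of 9 at ribosomal protein genes 2 were lower at each time, with medians of -0.15 and -0.17, and of 2 at chondrogenic and adipogenic regulators none was called in early Fra2 and 1 was lower in late Fra2. Of 7 runs at fibroblast marker genes, 0 were higher and 1 lower in early Fra2, and 1 and 1 in late Fra2, with medians of -0.13 and -0.18. The 1 run at a macrophage marker, Cd68, was called at neither time and had -0.20 and -0.23.

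The medians of these lists moved with the scaling, as the median of all runs did. The median of the AP-1 target, wound and protease list was above 0 under all scalings, at 0.26 and 0.28 with TMM from gene-end peaks and 0.30 and 0.41 with cyclic loess offsets, and that of the Polycomb subunit list was below 0 under all, at -0.11 and -0.08, and -0.13 and -0.04. The Hox list turned to -0.01 and 0.01 with TMM from gene-end peaks and to 0.07 and 0.14 with cyclic loess offsets, so its lower level depended on the scaling. The immediate early and stress list turned to -0.01 and 0.03, and to 0.00 and 0.11.

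In Ezh2 inhibitor the same groups held few calls under TMM: 2 AP-1 target runs were higher, 1 matrix run was higher and 1 lower, 1 cytoskeleton run was higher, 1 fibroblast marker run, that of Col1a1, was lower, 1 growth factor run was higher, 1 senescence run was higher, 1 TGF-beta run was lower, 1 Polycomb subunit run was lower and 3 immediate early runs were lower. The other groups had none, and no call held in the fit of the 6 libraries. Of all dense runs 0.894% were called higher and 2.43% lower. The counts depended on the scaling. With TMM from gene-end peaks 10 of 48 cytoskeleton runs were higher and 0 lower, 5 of 21 matrix runs higher and 1 lower, and 70 of all 783 runs higher and 9 lower. With cyclic loess offsets these were 15 and 0, 6 and 0, and 86 and 2.

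Under TMM 1 of the 4 microRNA runs shown above was called in the Fra2 comparisons. The run of miR-199a and miR-214 fell by 0.38 in early Fra2 and 0.27 in late Fra2 on the log2 scale, adjusted p = 0.0024 and 0.0367 by edgeR. It held 122, 112 and 101 CPM in early Fra2 against 160, 152 and 122 CPM in early control, with no overlap, and 106, 96.9 and 103 CPM in late Fra2 against 113, 133 and 122 CPM in late control. With TMM from gene-end peaks the early value was -0.17 and the late one -0.03, and with cyclic loess offsets -0.14 and 0.08, so the late direction flipped. The runs of miR-29a and miR-29b, of miR-132 and miR-212, and of miR-21a had early log2 fold changes of 0.13, -0.13 and -0.09, with adjusted p = 0.18, 0.241 and 0.45 by edgeR. The miR-29 run of 58 peaks, nearest to Klf14, was called higher in early Fra2 with TMM from gene-end peaks, at 0.33 with adjusted p = 5.83e-07, and with cyclic loess offsets, at 0.52 with adjusted p = 3.90e-12; its late value of -0.07 turned to 0.16 and 0.41 there. The miR-21a run turned to 0.11 with adjusted p = 0.136 and 0.25 with adjusted p = 0.000163 in early Fra2, and its late value of -0.08 to 0.15 and 0.36. The miR-29 run was higher in late control than in early control, by 0.27 with adjusted p = 0.0201 by edgeR and 0.254 in the fit of the control groups alone.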

How the data were processed

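The authors deposited a table of raw read counts for 206367 consensus peaks in 15 libraries, and a peak list per library with a score, a fold enrichment ratio over background, and −log10 p and q values of the peak caller, per the file headers and layout. MACS2 and the mm10 build are named in the submitters' processing notes; the aligner, the counting tool and the way the consensus was made are each not given in the sources used here. All but 1 of the peaks are 502 bases wide. The caller's scores, ratios and −log10 values were not used beyond the positions of the deposited peaks.

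Peaks were chained in Python 3.11.15 with pandas 2.3.3. Counts per peak, and counts summed over each of the 116523 chains, were tested over the whole table in edgeR 4.0.16 (R 4.3.3) with quasi-likelihood fits, a mean per group over all 15 libraries, TMM factors from all peaks and edgeR's filter on low counts, which 11908 member peaks and all 783 runs passed; p-values were adjusted by Benjamini-Hochberg over all features tested. CPM are TMM-scaled. Alternatives used DESeq2 1.42.0, TMM from peaks within 1 kb of a gene end, cyclic loess offsets and limma 3.58.1, other chain rules, no filter, only the groups compared, a replicate block, and each library left out. Shares were tested with SciPy 1.17.1. The edgeR script was tested on simulated data. Gene positions are from RefSeq on GRCm38.p6, the same assembly as mm10. No column of the tables was left without a sample, and intervals and floors cover counting error only.

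Runs were named by the 10 largest, the 5 highest and 5 lowest called per treatment, the 3 highest and 3 lowest called for the 2 other comparisons, and up to 3 per gene list. Runs named outside that rule, at Id1, Btg2, Nr4a1, Csrnp1, Zyx, Tpm1, Ptgs2, Zmiz1, Csrp1 and the microRNA genes, the upstream Fosl2 run and the 42-peak Hmga2 run, were chosen after their values were seen. The members and lists were chosen with earlier results of these data known.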

Additional observations from a re-analysis of the deposited data

Results flagged for a closer look

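The Fra2 effect differed between the late and the early time for 1 dense run and 9 member peaks, tested as an interaction by edgeR with adjustment over all chains or all peaks. For the Ndrg1 run the late effect was 0.84 lower on the log2 scale (-0.84 ± 0.15, adjusted p = 0.0092); the call was lost in 4 of 20 alternatives, whose values ran from -0.92 to -0.73. In this run the late control libraries had reached the level of early Fra2, a change of 0.90 from early control.

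The peak of that run at chr15:66931681-66932182 differed by -1.18 (adjusted p = 0.0276), with 8.93 CPM in early Fra2 and 4 CPM in early control, and 7.18 CPM in late Fra2 and 7.38 CPM in late control. In the Fn1 and Atic run the peaks at chr1:71643279-71643780 and chr1:71644163-71644664 differed by 1.55 and 1.65 (adjusted p = 0.0176 and 0.0283), with 2.06 and 1.76 CPM in early Fra2 against 3.39 and 2.67 CPM in early control, and 6.68 and 5.28 CPM in late Fra2 against 3.83 and 2.62 CPM in late control. In the Id1 run the peaks at chr2:152738016-152738517 and chr2:152738918-152739419 differed by 1.12 and 1.36 (adjusted p = 0.0244 and 0.00443), with 6.33 and 6.6 CPM in early Fra2 against 11.3 and 14.1 CPM in early control, and 7.51 and 9.42 CPM in late Fra2 against 6.16 and 7.88 CPM in late control.

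In the Zfpm1 run the peaks at chr8:122276222-122276723 and chr8:122277510-122278011 differed by -1.33 and -1.23 (adjusted p = 0.0321 and 0.043), with 4.06 and 3.91 CPM in early Fra2 against 2.58 and 2.76 CPM in early control, and 4.97 and 4.2 CPM in late Fra2 against 8.1 and 6.76 CPM in late control. A peak of an Unc5b run at chr10:60822547-60823048 differed by -1.02 (adjusted p = 0.0405) and one of a Ralgps1 run at chr2:33320461-33320962 by -1.20 (adjusted p = 0.0388). With only the groups compared in the fit, 2 member peaks had a late log2 fold change called above the early one and 0 below it.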

How the results depend on the processing

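Without the filter on low counts every count of calls stayed within 1.5 times, and so did the replicate block, with 19 runs called higher and 192 lower in early Fra2, 15 and 259 in late Fra2, 7 and 18 in Ezh2 inhibitor, 0 and 1 for the late minus early Fra2 effect and 19 and 16 in late control. Deviations of same-numbered libraries correlated at 0.26, -0.01 and 0.23 in early Fra2, -0.09, -0.03 and -0.01 in late Fra2, -0.01, -0.02 and -0.07 in Ezh2 inhibitor, and -0.19, 0.04 and -0.11 between the controls. In early Fra2 libraries of different numbers correlated at -0.27 to 0.12, so these values do not settle whether the early libraries were paired. In the other comparisons the highest correlation was between libraries of different numbers. The difference in the share of reads in dense runs kept its sign in each comparison under every chain rule tried, but with gaps of up to 1000 bases its exact permutation p was 0.3 for Ezh2 inhibitor, at -0.136 points, and with 15 or more peaks 0.2, at -0.208.

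With DESeq2, the runs called higher and lower were 9 and 53 in Ezh2 inhibitor and 1 and 1 in the late minus early Fra2 effect. The member peaks were 7 and 9 in the late minus early Fra2 effect. With TMM from gene-end peaks, the runs called higher and lower were 184 and 36 in early Fra2, 122 and 29 in late Fra2, 70 and 9 in Ezh2 inhibitor, 3 and 2 in the late minus early Fra2 effect and 60 and 27 in late control. Among member peaks the counts were 1180 and 241 in early Fra2, 1049 and 158 in late Fra2, 430 and 63 in Ezh2 inhibitor, 11 and 10 in the late minus early Fra2 effect and 410 and 211 in late control. With cyclic loess offsets, the runs called higher and lower were 164 and 48 in early Fra2, 202 and 6 in late Fra2, 86 and 2 in Ezh2 inhibitor, 7 and 1 in the late minus early Fra2 effect and 34 and 38 in late control. The member peaks were 602 and 1544 in early Fra2, 215 and 332 in Ezh2 inhibitor, 27 and 14 in the late minus early Fra2 effect and 264 and 447 in late control. With only the groups compared in the fit, the runs called higher and lower were 7 and 46 in early Fra2, 18 and 405 in late Fra2, 0 and 0 in Ezh2 inhibitor and 1 and 2 in late control. Among member peaks the counts were 208 and 298 in early Fra2, 409 and 1565 in late Fra2, 3 and 0 in Ezh2 inhibitor, 2 and 0 in the late minus early Fra2 effect and 45 and 64 in late control. With gaps of up to 1000 bases, the runs called higher and lower were 8 and 52 in early Fra2, 14 and 72 in late Fra2, 10 and 7 in Ezh2 inhibitor and 15 and 7 in late control. The member peaks were 90 and 246 in early Fra2, 101 and 204 in late Fra2, 65 and 52 in Ezh2 inhibitor, 0 and 3 in the late minus early Fra2 effect and 91 and 94 in late control. With gaps of up to 5000 bases, the runs called higher and lower were 64 and 368 in early Fra2, 26 and 504 in late Fra2, 10 and 50 in Ezh2 inhibitor and 38 and 17 in late control. Among member peaks the counts were 1176 and 1813 in early Fra2, 656 and 1367 in late Fra2, 114 and 151 in Ezh2 inhibitor, 4 and 17 in the late minus early Fra2 effect and 460 and 342 in late control. With 8 or more peaks per run, the runs called higher and lower were 49 and 329 in early Fra2, 23 and 469 in late Fra2, 7 and 29 in Ezh2 inhibitor, 0 and 2 in the late minus early Fra2 effect and 34 and 22 in late control. The member peaks were 725 and 1325 in early Fra2, 410 and 1093 in late Fra2, 6 and 10 in the late minus early Fra2 effect and 316 and 289 in late control. With 15 or more peaks per run, the runs called higher and lower were 8 and 69 in early Fra2, 11 and 94 in late Fra2, 4 and 8 in Ezh2 inhibitor, 0 and 0 in the late minus early Fra2 effect and 14 and 6 in late control. Among member peaks the counts were 216 and 403 in early Fra2, 181 and 332 in late Fra2, 2 and 3 in the late minus early Fra2 effect and 131 and 149 in late control. With limma on the mean log2 CPM of the peaks of a run, the runs called higher and lower were 6 and 79 in early Fra2, 9 and 28 in late Fra2, 2 and 0 in Ezh2 inhibitor, 0 and 0 in the late minus early Fra2 effect and 2 and 11 in late control. The cause of these shifts was not tested, apart from the chain rules, which change how many runs and peaks are counted.

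Leaving out each library in turn gave 13 to 28 runs higher and 130 to 339 lower in early Fra2, 13 to 16 and 106 to 311 in late Fra2, 5 to 20 and 0 to 155 in Ezh2 inhibitor, 0 to 3 and 0 to 2 for the late minus early Fra2 effect, and 8 to 33 and 10 to 40 in late control. For member peaks the ranges were 303 to 542 and 479 to 1354 in early Fra2, 137 to 252 and 234 to 745 in late Fra2, 15 to 187 and 2 to 461 in Ezh2 inhibitor, 1 to 17 and 0 to 19 for the late minus early Fra2 effect, and 72 to 281 and 107 to 361 in late control. The largest counts for runs came without the early control library 3, except in late Fra2, where it was the late control library 1, and for runs called lower in the late minus early Fra2 effect. The 0 runs lower in Ezh2 inhibitor came without its library 1, and the fewest in late Fra2, 106, without late Fra2 library 2. The differences in the share of reads ran from -0.886 to -0.678, -0.746 to -0.637, -0.549 to -0.342 and -0.295 to -0.0875 points in early Fra2, late Fra2, Ezh2 inhibitor and late control.

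For single named runs, 2312 values kept their side of the threshold, 251 lost the call, 83 gained it and 14 reversed. With TMM from gene-end peaks the late Fra2 values of the runs at Myh9, Frmd8 and Klf14 became 0.06, 0.13 and 0.16. With cyclic loess offsets late values became 0.38 at Myh9, 0.28 at Col5a1, 0.46 at Frmd8, 0.41 at Klf14, 0.08 at Id3, 0.05 at Col1a1, 0.01 at Zfp36 with Plekhg2, and 0.24 at Isg15 with Agrn and Perm1; early values became 0.07 at Zfpm1 and 0.17 at Col1a1, and the Ezh2 inhibitor value became 0.28 at Actn1.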
